A study of Homo sapiens with 30 samples.

Results

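ANKRD10-2 overexpression was compared with an empty plasmid (Vector) in 5637 cells, a cell line from a human bladder carcinoma. ANKRD10-2 is the shorter of the main splice variants of ANKRD10, a protein with ankyrin repeats, and the study asked whether it acts as a coactivator of MYC. Plasmids with Flag-tagged ANKRD10-1 (the longer variant) or Flag-tagged ANKRD10-2 were delivered by lipid transfection, and no selection of the transfected cells is described. The comparison takes its 6 libraries by label, 3 named ANKRD10-2 and 3 named Vector, out of 9 libraries in the overexpression count table. All genes of that table were considered, and 20177 of 56303 had enough counts for a test. The 3 ANKRD10-1 libraries of the same table, and 3 siANKRD10-2 and 3 siNC (control siRNA) libraries of a knockdown table, are used only where a value of ANKRD10-2 is set beside them. The study places ANKRD10-1 overexpression and ANKRD10-2 knockdown in RBPMS-knockout cells and ANKRD10-2 overexpression in parental cells, whereas the labels name 5637 for each and give 1 Vector group. A difference between ANKRD10-2 and ANKRD10-1 can therefore not be told apart from a difference in cell background. The background of the Vector libraries is not given either, so the same holds for each plasmid against Vector. The labels do not say that the libraries of a group came from separate cultures, so p-values measure the spread between these libraries.

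MYC pairs with MAX on the E-box sequence CACGTG and raises genes of ribosome assembly, translation and metabolism. Interferon-stimulated genes are switched on downstream of interferon receptors, through sites that repeat GAAA. NF-kappaB drives cytokines and chemokines, the factor HSF1 drives cytosolic chaperones, and the unfolded protein response drives chaperones of the endoplasmic reticulum (ER).

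The largest changes were falls of interferon-stimulated genes and rises of heat shock chaperones. All 12 genes picked as the largest falls belong to the interferon list, and 5 of the 12 picked as the largest rises belong to the heat shock list. The interferon-stimulated gene list had 53 of 55 tested members lower and 0 higher, with a median log2 fold change of −1.51. The heat shock list had 16 of 21 higher and 0 lower, with a median of 0.62. Across all genes tested, 19.9% passed the test, 10.7% higher and 9.25% lower, at an adjusted p under 0.05 from edgeR's quasi-likelihood test, and the median log2 fold change was −0.0055. Most changes were small, since 2996 of the 4017 differentially expressed genes (DEGs) changed by less than 0.5 on the log2 scale and the median absolute change of DEGs was 0.335. At least 2-fold changes numbered 61 higher and 180 lower, and 38 of these 180 were interferon-list genes and 5 of these 61 heat shock genes. As a description, the groups did not overlap for 36.3% of all genes tested, 18.2% higher and 18.1% lower.

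ANKRD10 (ENSG00000088448, chromosome 13, 110878540 to 110915069 on the minus strand of GRCh38, 14 merged exons) was 1.33-fold higher with the ANKRD10-2 plasmid than with Vector (log2 fold change 0.41, SE 0.05, adjusted p = 8.29e-05 from edgeR). The count sums all transcripts of the gene, so it does not show which variant rose. In the direct comparison ANKRD10 was lower in the ANKRD10-2 than in the ANKRD10-1 libraries (log2 fold change −0.27, SE 0.05, adjusted p = 0.00355 from edgeR). RBPMS, the RNA-binding protein whose loss the study links to ANKRD10 splicing, had a log2 fold change of 0.08 against Vector (SE 0.13, adjusted p = 0.717) and its groups overlapped.

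Total counts per library ran from 31736779 to 47116480 over the 6 libraries. The markers of urothelial carcinoma cells were all detected, with KRT19 at 28462 counts or more in every library, and 8 of these 11 markers were higher with ANKRD10-2 and 0 lower (median log2 fold change 0.24). The list of 12 leukocyte markers also held the hemoglobin genes HBB and HBA1, which are not leukocyte genes and were at 0 in every library. Of the 12 genes 4, HBB and HBA1 among them, did not exceed 3 counts, while CD14 had 6 to 22 counts and CSF1R 47 to 79. The 6 endothelial markers did not exceed 58 counts. All 7 fibroblast markers were detected in every library, with COL1A1 at 1227 to 1948 counts and COL1A2 at 148 to 288, and none of the 7 passed the test. CD68, a lysosomal protein listed with the leukocyte markers, was lower (log2 fold change −0.34, SE 0.07, adjusted p = 0.00428 from edgeR), and 81.7% of its exon bases are shared with an overlapping gene on the same strand. Vector replicate 3 stood apart from the other Vector libraries by more than 1 on the log2 scale in 59 genes, against 4 to 29 genes for each of the other libraries. Of these 59 genes 57 were higher in it, 13 stood apart the same way in ANKRD10-2 replicate 3, and 12 were DEGs. Reads of mitochondrial genes made up 7.59% to 7.75% of the ANKRD10-2 libraries and 8.47% to 8.66% of the Vector libraries. Among the genes of the longest length quartile 9.89% were higher and 15.2% lower, against 6.18% and 4.56% in the shortest, and the part of gene length in the counts was not tested.

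Interferon-stimulated genes were low in every ANKRD10-2 library. IFI44L, an interferon-induced gene, had 94.5, 70.6 and 121 normalized counts (counts scaled to a common library size) with ANKRD10-2 and 4648, 4978 and 4726 in Vector. It was 49.2-fold lower (log2 fold change −5.62, SE 0.11, adjusted p = 7.19e-13 from edgeR). BST2 (tetherin), which holds budding viruses at the cell surface, had 70.7, 41.1 and 69.7 against 2031, 1848 and 1970. This was a 31.6-fold fall (log2 fold change −4.98, SE 0.12, adjusted p = 6.02e-12 from edgeR). The highest ANKRD10-2 library of either gene was far below the lowest Vector library. XAF1, which promotes apoptosis, fell from 231, 261 and 245 normalized counts to 10.4, 12.8 and 7.74 (log2 fold change −4.58, SE 0.20, adjusted p = 1.65e-09 from edgeR). RP11-609D21.3, an antisense gene that shares 38.3% of the exon bases of XAF1, had a log2 fold change of −4.62, and reads of the pair cannot be told apart without the strand setting of the count. OASL, a relative of the oligoadenylate synthetases, was near the detection limit with ANKRD10-2, at 2.08, 5.13 and 9.68 normalized counts against 91.9, 111 and 89.3.

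MX1, a GTPase that traps viral nucleocapsids, had 430, 425 and 391 normalized counts against 2853, 3234 and 3413 (log2 fold change −2.93, SE 0.08, adjusted p = 6.42e-12 from edgeR). MX2, its relative, had (log2 fold change −2.89, SE 0.08). IFIT1, which binds viral RNA ends, had 77.9, 89.8 and 71.6 against 473, 464 and 576 (log2 fold change −2.67, SE 0.13). All these genes had groups without overlap. OAS1 and OAS2, which make the activator of RNase L, had log2 fold changes of −2.57 (SE 0.07) and −3.42 (SE 0.19). TRIM22, an antiviral ubiquitin ligase, had −3.32 (SE 0.09), and the helicase DDX60 had −2.20 (SE 0.06). IFI6, an antiviral membrane protein, had −3.71 (SE 0.13), IFI44 had −3.54 (SE 0.08) and IFITM1, which blocks viral entry, had −3.69 (SE 0.16). Each of these 7 genes passed the threshold of edgeR with groups that did not overlap. IFITM1 shares 32.5% of its exon bases with the adjacent IFITM2 in the gene models, so their counts are uncertain. Only ISG20 (−0.41) and IRF1 (0.04), named because they are the exceptions, did not pass in this list. STAT2 (−0.69, SE 0.07) and IRF9 (−1.69, SE 0.05), which act in interferon signalling, passed the same test. Both were chosen after their values were seen. In bulk libraries fewer cells with these transcripts and fewer transcripts per cell cannot be told apart.

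Receptors and sensors of the same pathway fell less. Of 14 tested genes of interferons and nucleic acid sensing, 8 were lower and 1 was higher, with a median of −0.40, while IFNB1, IFNA1, TLR9 and 3 IFNL genes were too low to test. IFNAR1, a chain of the type I interferon receptor, had 1232, 1179 and 1219 normalized counts against 1721, 1667 and 1733 (log2 fold change −0.50, SE 0.06, adjusted p = 4.19e-05 from edgeR). AIM2 and IFI16, sensors of DNA, had log2 fold changes of −0.63 (SE 0.11) and −0.40 (SE 0.05). MB21D1, which encodes the DNA sensor cGAS, was the member that passed as higher (0.29, SE 0.09, adjusted p = 0.0414 from edgeR). Its call was lost without Vector replicate 2 or 3 or ANKRD10-2 replicate 1 or 2 (adjusted p from 0.0902 to 0.149). The list had 5 genes lower without Vector replicate 2 or without any single ANKRD10-2 library. In the MHC class I list 9 of 19 genes were lower and 2 were higher, with a median of −0.17. NLRC5, the transactivator of class I genes, had −0.67 (SE 0.11), the immunoproteasome subunit PSMB9 had −0.63 (SE 0.11) and the peptide loading chaperone TAPBP had −0.36 (SE 0.08). The 2 that rose, CALR (0.34, SE 0.05) and PDIA3 (0.22, SE 0.06), are also folding factors of the ER, and PDIA3 lost its call without Vector replicate 2 (adjusted p = 0.0678). Without Vector replicate 1 the class I count of lower genes was 4, and without ANKRD10-2 replicate 2 it was 5.

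Promoter windows of these genes are shown because interferon-stimulated genes are switched on through sites that repeat GAAA. A high share of that motif in a list of such genes is therefore not evidence about ANKRD10-2. The windows come from RefSeq (GRCh38.p14), on the strand of the gene, and a motif of GAAA, any 2 bases and GAAA again, on either strand, is in capitals.
IFI44L: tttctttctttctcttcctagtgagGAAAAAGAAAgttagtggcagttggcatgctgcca
IFI44: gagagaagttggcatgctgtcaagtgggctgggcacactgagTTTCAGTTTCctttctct
IFI6: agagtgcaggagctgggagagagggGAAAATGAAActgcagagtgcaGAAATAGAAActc
IFIT1: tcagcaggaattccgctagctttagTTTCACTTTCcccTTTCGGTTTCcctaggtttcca
The IFI44L window is chr1:78620259-78620318 (plus strand), that of IFI44 is chr1:78649729-78649788 (plus strand), that of IFI6 is chr1:27672273-27672332 (minus strand) and that of IFIT1 is chr10:89392482-89392541 (plus strand). None of the 4 windows covers an exon of the count table. The motif was in the 300-base window from 250 bases before to 50 bases after the start site of 28 of 44 interferon-list genes with a window (63.6%), against 2.92% of all genes tested with a window and 3.65% of all windows in the table. Among all genes lower with ANKRD10-2 it was in 6.67%, among those at least 2-fold lower in 25%, and among genes that were higher in 1.75%. A match is a description of the letters and not a measured binding site.

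Cytosolic chaperones rose with ANKRD10-2. HSPA6, an HSP70 protein made almost only under stress, had 1565, 1282 and 1328 normalized counts against 87.4, 128 and 88.5 in Vector. It was 13.9-fold higher (log2 fold change 3.80, SE 0.13, adjusted p = 9.59e-11 from edgeR). HSPA1A and HSPA1B, which encode nearly the same HSP70 protein, had log2 fold changes of 1.97 (SE 0.05) and 2.00 (SE 0.05), but they share reads, so their split is uncertain. DNAJB1, an HSP40 partner of HSP70, had 11810, 10490 and 11120 against 3763, 3670 and 3649 (log2 fold change 1.59, SE 0.05). HSPH1, which exchanges the nucleotide of HSP70, had 45700, 43490 and 42610 against 16090, 14130 and 14330 (log2 fold change 1.56, SE 0.06). All 3 ANKRD10-2 libraries lay above all Vector libraries for each of these genes, and each passed the threshold of edgeR. The cytosolic chaperonin CCT, which folds actin and tubulin, had 7 of 8 subunits higher and 0 lower (median 0.32), with TCP1 at 0.59 (SE 0.07). The mitochondrial chaperone HSPD1 had 0.59 (SE 0.05). The proteasome list had 14 of 32 subunits higher and 0 lower (median 0.16), with ADRM1, a ubiquitin receptor, at 0.50 (SE 0.06). The HSPA6 promoter is shown because HSPA6 had the largest rise of the list, with the heat shock motif in capitals, which is GAA, any 2 bases, TTC, any 2 bases and GAA on either strand (RefSeq, GRCh38.p14, chr1:161524442-161524501, plus strand).
HSPA6: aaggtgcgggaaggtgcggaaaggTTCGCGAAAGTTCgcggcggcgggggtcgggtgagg
This motif was in the window of 4 of 19 heat shock genes (21.1%), against 0.377% of all genes tested with a window. Among all genes higher with ANKRD10-2 it was in 0.624%, and among those at least 2-fold higher in 1 of 27 (3.7%), each of those with a window.

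Stress genes of the ER and of amino acid supply rose as well. The ER stress list had 16 of 22 genes higher and 0 lower, with a median log2 fold change of 0.31, and the ATF4 list had 15 of 28 higher and 0 lower, with a median of 0.35. DDIT3, the stress factor CHOP, had 6186, 5522 and 5581 normalized counts against 2443, 2111 and 2344 (log2 fold change 1.32, SE 0.06, adjusted p = 5.00e-09 from edgeR). DDIT3 shares 28% of its exon bases with MARS, the methionyl-tRNA synthetase, which had 0.91 (SE 0.06). HSPA5 (BiP), the main ER chaperone, had 256500, 237400 and 228800 against 129900, 124800 and 130400 (log2 fold change 0.91, SE 0.05, adjusted p = 2.05e-08 from edgeR). Both genes were higher in every ANKRD10-2 library. HERPUD1, which helps clear misfolded ER proteins, had 0.94 (SE 0.06). ATF3, a stress factor of the AP-1 family, had 2475, 2288 and 2506 against 993, 879 and 931 (1.37, SE 0.06), and GADD45A, a growth arrest gene, had 1.08 (SE 0.07). SESN2, a sensor of leucine, and SLC7A11, the cystine transporter, had 0.76 (SE 0.10) and 0.75 (SE 0.14). In the NRF2 list 16 of 27 genes were higher and 2 lower (median 0.24), led by HMOX1, the heme oxygenase, with 155, 149 and 136 normalized counts against 54.6, 70.7 and 65.6 (1.20, SE 0.16). AKR1C2 (−0.58, SE 0.18) and AKR1C3 (−0.71, SE 0.12), which reduce steroids and aldehydes, were lower. The AKR1C2 call was lost without any single library other than Vector replicate 3 (adjusted p from 0.0576 to 0.137).

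The interferon and stress lists also moved in the ANKRD10-1 libraries, which were compared with the same Vector libraries, so those results share controls. Against Vector, ANKRD10-1 had 49 of 55 interferon genes lower (median −1.37), 16 of 21 heat shock genes higher (median 0.45) and 14 of 22 ER stress genes higher (median 0.30), where 6.31% of all genes passed, 3.5% higher and 2.81% lower. In the direct test of ANKRD10-2 against ANKRD10-1, 7.26% of 20052 genes passed, 4.15% higher and 3.1% lower. There 7 of 51 interferon genes were lower and 2 higher (median −0.12), 7 of 21 heat shock genes were higher (median 0.12), and 1 of 22 ER stress genes was higher and 1 lower (median −0.01). IFI44L was lower with ANKRD10-2 than with ANKRD10-1 (log2 fold change −1.04, SE 0.17, adjusted p = 0.000423 from edgeR), as was BST2 (−1.36, SE 0.19, adjusted p = 0.000102). HSPA6 (−0.07, SE 0.07, adjusted p = 0.613) and DDIT3 (−0.05, SE 0.06, adjusted p = 0.668) did not pass. HSPA1A (0.22, SE 0.06), HSPH1 (0.31, SE 0.06) and DNAJB1 (0.27, SE 0.05) were higher with ANKRD10-2. After siANKRD10-2 against siNC, in a separate table where 36.3% of genes passed, 17.6% higher and 18.7% lower, 19 of 51 interferon genes were lower and 8 higher (median −0.12). There the heat shock list had 10 of 20 genes lower and 3 higher (median −0.20), and the ER stress list 4 of 22 lower and 5 higher (median −0.05).

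**Figure D1:**
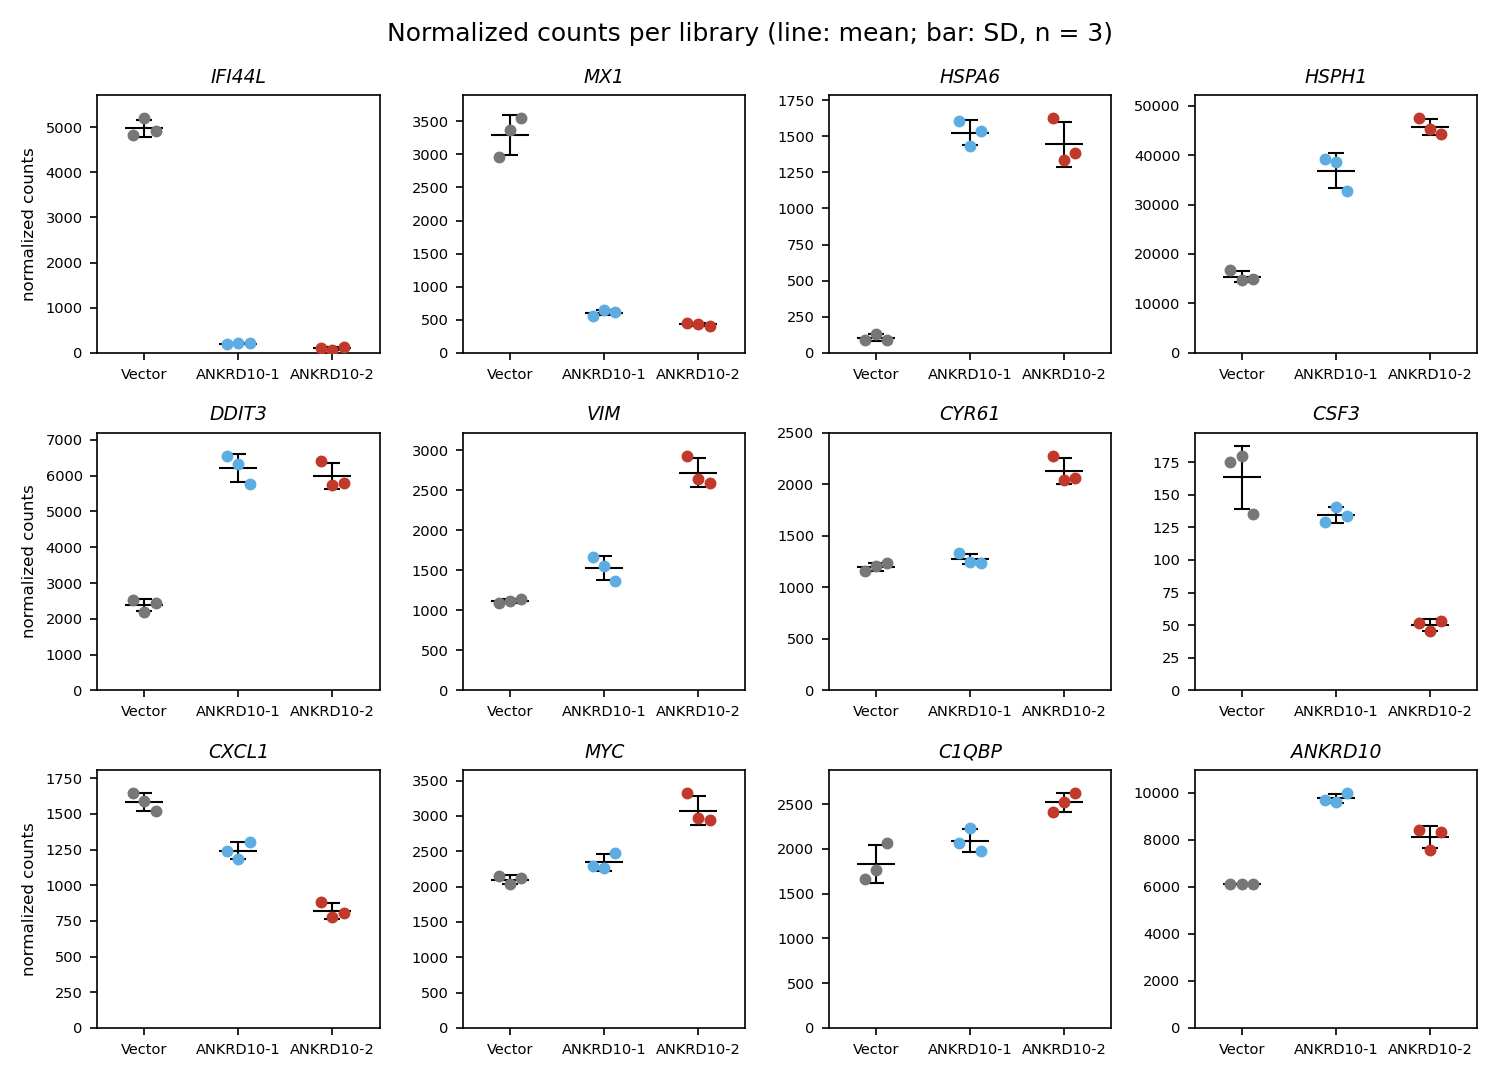
Normalized counts (vertical axes, from 0) of 12 genes in each library of Vector, ANKRD10-1 and ANKRD10-2, scaled over all 9 libraries, with points for libraries, lines for means and bars for the SD (n = 3). IFI44L, HSPA6 and DDIT3 separate both plasmids from Vector, whereas CYR61, CSF3 and MYC separate ANKRD10-2 from the other groups.

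Inflammatory targets of NF-kappaB were lower with ANKRD10-2. In this list 24 of 39 genes were lower and 0 higher, with a median log2 fold change of −0.37, where 9.25% of all genes were lower. CSF3, which encodes the neutrophil growth factor G-CSF, had 49.9, 43.6 and 51.3 normalized counts against 168, 172 and 130 in Vector (log2 fold change −1.69, SE 0.18, adjusted p = 1.84e-05 from edgeR). CCL20, a chemokine for lymphocytes and dendritic cells, had 151, 162 and 186 against 382, 370 and 411 (−1.22, SE 0.11). CXCL1, a neutrophil chemokine, had 853, 746 and 775 against 1580, 1524 and 1463 (−0.94, SE 0.07, adjusted p = 4.76e-07 from edgeR). The groups did not overlap for any of the 3. ANKRD10-1 against the shared Vector libraries had 8 of 40 genes of the list lower and 0 higher (median −0.11). Only 2.81% of all genes were lower in that comparison, so the counts of the plasmids are not on the same scale. In the direct test of ANKRD10-2 against ANKRD10-1, 19 of 39 genes were lower and 0 higher (median −0.20), where 3.1% of all genes were lower. CSF3 (−1.41, SE 0.18, adjusted p = 3.75e-05), CCL20 (−0.92, SE 0.13, adjusted p = 0.00012) and CXCL1 (−0.59, SE 0.07, adjusted p = 2.21e-05) each passed that edgeR test. After siANKRD10-2, 15 of 38 genes of the list were lower and 10 higher (median −0.08), beside 18.7% and 17.6% of all genes. Among matrix proteases and their inhibitors 6 of 23 genes were lower and 3 higher (median −0.06). MMP13, a collagenase, had 217, 192 and 194 normalized counts against 991, 928 and 939 (−2.24, SE 0.09, adjusted p = 2.88e-10 from edgeR), and was also below ANKRD10-1 (−0.79, SE 0.11). MMP10 (−1.05, SE 0.11) and the plasminogen activator PLAT (−0.90, SE 0.06) were lower than in Vector. These falls were partly shared by ANKRD10-1, which had −1.45 (MMP13), −0.80 (MMP10) and −0.41 (PLAT) against the same Vector libraries. In the direct test PLAT was lower with ANKRD10-2 (−0.50, SE 0.06) and MMP10 did not pass (adjusted p = 0.225 from edgeR). SERPINB2 (0.42, SE 0.06), an inhibitor of plasminogen activators, and the protease ADAMTS1 (0.64, SE 0.10) were higher.

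Immediate early genes moved in both directions. Of 24 genes 9 were higher and 3 lower, with a median of 0.10. FOSB had 739, 740 and 835 normalized counts against 1678, 1835 and 1665 (log2 fold change −1.16, SE 0.07), and EGR1 (−0.72, SE 0.06) and FOS (−0.60, SE 0.05) were also lower. FOSL1, another FOS family member, had 6580, 6159 and 6387 against 3523, 3402 and 3404 (0.89, SE 0.05), and IER5 had 0.63 (SE 0.05). The 5 genes each passed the edgeR threshold. FOSL1 (0.47, SE 0.05, adjusted p = 4.65e-06) and IER5 (0.31, SE 0.05, adjusted p = 0.000932) were also higher than with ANKRD10-1 in edgeR. FOSB, EGR1 and FOS did not pass that direct test (adjusted p = 0.077, 0.077 and 0.446). In ANKRD10-1 against the shared Vector libraries they had −0.93, −0.55 and −0.52, while FOSL1 had 0.42 and IER5 had 0.32. Feedback genes of the MAP kinase pathway split as well, with 5 of 16 higher and 3 lower (median −0.02), DUSP6, the ERK phosphatase, at −0.70 (SE 0.06), DUSP5 at 0.80 (SE 0.11) and SPRY4 at 0.52 (SE 0.07). DUSP6 shares 40.5% of its exon bases with an antisense gene, which had −0.73. EGF receptors and ligands had 5 of 12 higher and 2 lower (median −0.10). EGFR was lower (−0.36, SE 0.05), while the EGF family ligands AREG (0.67, SE 0.05), NRG1 (0.74, SE 0.08) and EREG (0.48, SE 0.05) were higher.

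Targets of YAP and TEAD, the factors at the end of the Hippo pathway, were higher in 10 of 20 genes and lower in 3, with a median log2 fold change of 0.27. ANKRD1, a muscle ankyrin protein unrelated to the plasmid, had 1182, 1142 and 1190 normalized counts against 552, 515 and 579 (1.09, SE 0.07, adjusted p = 1.16e-07 from edgeR). CYR61, a matrix signalling protein, had 2192, 1963 and 1984 against 1112, 1154 and 1191 (0.83, SE 0.06), and THBS1 (thrombospondin) had 8023, 7885 and 8213 against 4781, 4308 and 4298 (0.85, SE 0.05). In each, every ANKRD10-2 library exceeded every Vector library. Against ANKRD10-1, 8 of the 20 genes were higher and 1 lower (median 0.17), with ANKRD1 at 0.84 (SE 0.07), CYR61 at 0.74 (SE 0.06) and THBS1 at 0.68 (SE 0.05), each past the edgeR threshold. IGFBP3, a carrier of insulin-like growth factors, fell against Vector (−0.33, SE 0.05). CTGF, a near relative of CYR61, was also lower (−0.31, SE 0.09), but its call was lost without any single library other than Vector replicate 2 (adjusted p from 0.0525 to 0.108). ARHGEF17 (−0.27, SE 0.09) lost its call without any single library other than Vector replicate 1 (adjusted p from 0.0783 to 0.201) and in DESeq2 (adjusted p = 0.0514).

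Genes of the mesenchymal state were higher in 10 of 33 and lower in 1, with a median of 0.19. VIM (vimentin), the intermediate filament of mesenchymal cells, had 2824, 2542 and 2489 normalized counts against 1051, 1067 and 1098 (log2 fold change 1.29, SE 0.06, adjusted p = 5.22e-09 from edgeR). It was also higher than with ANKRD10-1 (0.83, SE 0.07, adjusted p = 2.29e-07). The antisense genes RP11-124N14.3 and VIM-AS1, which share 12% and 12.4% of the exon bases of VIM, had 1.26 and 1.15 against Vector. SNAI2 (Slug), a repressor of epithelial genes, had 5446, 5507 and 5551 against 3091, 2925 and 3153 (0.85, SE 0.05, adjusted p = 3.23e-08 from edgeR), and the receptor kinase AXL had 0.66 (SE 0.05). SNAI2 (0.49, SE 0.05) and AXL (0.62, SE 0.05) were likewise higher than with ANKRD10-1. TNC, a matrix protein, was lower (−0.32, SE 0.05). CDH2 (N-cadherin), a mesenchymal marker, had 1351, 1429 and 1412 normalized counts with ANKRD10-2 against 1398, 1486 and 1529 in Vector. CDH1 (E-cadherin), an epithelial marker, had 4717, 4958 and 4908 against 4688, 4826 and 4535. These counts were scaled over all 9 libraries. The groups overlapped for either cadherin, so neither showed a mesenchymal shift. Without Vector replicate 1 or 2 or ANKRD10-2 replicate 1 or 3 the mesenchymal count was 6 higher. Of 33 epithelial genes 8 were higher and 1 lower, with a median of 0.10, and the higher count was 4 without Vector replicate 1 and 5 without Vector replicate 2 or 3. OVOL1, a factor that maintains epithelial identity, was higher (1.04, SE 0.15), and 27.1% of its exon bases are shared with RP11-770G2.5, which had 1.29. Among keratins 7 of 17 were higher and 2 lower, with KRT80 at 0.71 (SE 0.06) and KRT5, of basal cells, at 0.44 (SE 0.05), while KRT13 (−0.48, SE 0.11) and KRT23 (−0.39, SE 0.07) were lower. FOXA1, a factor of urothelial differentiation, had 126, 146 and 128 normalized counts against 205, 210 and 239 (−0.72, SE 0.13, adjusted p = 0.00157 from edgeR).

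MYC itself rose with ANKRD10-2. It had 3198, 2859 and 2824 normalized counts against 2063, 1946 and 2046 in Vector (log2 fold change 0.55, SE 0.06, adjusted p = 2.16e-05 from edgeR), and each ANKRD10-2 library exceeded each Vector library. It was also higher than with ANKRD10-1 (0.39, SE 0.06, adjusted p = 0.00031 from edgeR). MAX had 0.13 (SE 0.06, adjusted p = 0.131) and overlapping groups. In the wider network 3 of 12 genes were higher and 1 lower (median 0.11), and besides MYC, MXD1 (0.35, SE 0.05), a repressor that competes for MAX, and MLX (0.22, SE 0.05) rose. MGA had −0.25 (SE 0.06) and lost its call without Vector replicate 1 or 2 or ANKRD10-2 replicate 3 (adjusted p from 0.0511 to 0.0575).

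The panel of MYC targets followed by qRT-PCR in the study may have been chosen on its own RNA-seq, so it is not independent evidence of direction. In this panel 5 of 7 genes were higher and 0 lower, with a median log2 fold change of 0.33. C1QBP, a mitochondrial matrix protein, had 2325, 2433 and 2518 normalized counts against 1602, 1691 and 1987 (0.46, SE 0.07, adjusted p = 0.000642 from edgeR). RSL1D1, a nucleolar protein, had 15690, 14090 and 14380 against 10480, 10700 and 10830 (0.46, SE 0.05, adjusted p = 2.25e-05 from edgeR). DDX21 (0.33, SE 0.05) and WDR43 (0.33, SE 0.06), both of ribosomal RNA synthesis, also rose. PGK1, a glycolytic kinase, had 20920, 20860 and 21130 against 19370, 18810 and 18760 (log2 fold change 0.14, SE 0.04, adjusted p = 0.0282 from edgeR). That call was lost without any single Vector library or without ANKRD10-2 replicate 3 (adjusted p from 0.0613 to 0.0932). The hexokinase HK2 (0.11, SE 0.05, adjusted p = 0.111) and the methyltransferase PRMT3 (0.18, SE 0.08, adjusted p = 0.13) did not pass. In the direct test against ANKRD10-1, C1QBP (0.27, SE 0.06), HK2 (0.25, SE 0.05) and PGK1 (0.32, SE 0.05) were higher and the other 4 did not pass. ANKRD10-1 against the shared Vector libraries had 3 of the 7 panel genes higher and 1 lower (median 0.21). In that comparison 3.5% of all genes were higher and 2.81% lower. There PGK1 was the lower gene (−0.18, SE 0.04) and HK2 had −0.14 (SE 0.04, adjusted p = 0.0592 from edgeR). WDR43 had 0.33 with either plasmid against Vector. After siANKRD10-2 against siNC, 6 of the 7 panel genes were lower, MYC had −0.60 (SE 0.06) and WDR43 (−0.06) did not pass.

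The longer MYC lists rose by small amounts in many genes. MYC targets V1 had 104 of 200 genes higher and 3 lower (median 0.17), and V2 had 22 of 59 higher and 0 lower (median 0.19). ODC1, the first enzyme of polyamine synthesis, had 1670, 1677 and 1499 normalized counts against 970, 882 and 960 (0.78, SE 0.07, adjusted p = 2.98e-06 from edgeR), and NME1, a nucleoside diphosphate kinase, had 0.61 (SE 0.05). Part of the NME1 and NME2 exons is also listed under a readthrough gene, so their counts are uncertain. The exceptions in V1 were CUL1 (−0.30, SE 0.08), SRSF7 (−0.19, SE 0.05) and CDC45 (−0.19, SE 0.05). The calls of SRSF7 and CDC45 were each lost in 5 of the 6 fits without 1 library (adjusted p from 0.0529 to 0.102), SRSF7 passing only without ANKRD10-2 replicate 1 and CDC45 only without Vector replicate 3. CUL1 lost its call without Vector replicate 1 or ANKRD10-2 replicate 3 (adjusted p = 0.072 and 0.0527). Without Vector replicate 2 the V2 count was 13. Against ANKRD10-1, V1 had 21 higher and 3 lower (median 0.07) and V2 had 2 of 58 higher and 1 lower (median −0.00344). In that test 4.15% of all genes were higher and 3.1% lower. ANKRD10-1 against the shared Vector libraries had 57 of 200 V1 genes and 23 of 58 V2 genes higher. Only 3.5% of all genes were higher there, against 10.7% for ANKRD10-2 against Vector, so the raw counts of the 2 plasmids are not on the same scale. After siANKRD10-2 against siNC both lists were mixed. V1 had 84 of 200 genes lower and 29 higher, and V2 had 21 of 58 lower and 12 higher (median −0.10 in each). The shares of all genes were 18.7% lower and 17.6% higher. The E-box CACGTG was in the window of 13.3% of V1 genes, 9.99% of all genes that were higher, 7.86% of those that were lower and 9.94% of all genes tested, each of those with a window.

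Components of the ribosome moved together. Of 79 cytosolic ribosomal protein genes 64 were higher and 0 lower, with a median log2 fold change of 0.28. RPS2 had 17930, 15080 and 16200 normalized counts against 11790, 11250 and 12870 (0.45, SE 0.07, adjusted p = 0.000267 from edgeR), the largest rise of the list. Genes of nucleolar ribosome assembly were higher in 28 of 60 and lower in 2 (median 0.19), led by GNL3 (0.51, SE 0.05) and LYAR (0.48, SE 0.05), while POLR1A, the largest subunit of RNA polymerase I, was lower (−0.42, SE 0.12), a call lost without Vector replicate 2 or ANKRD10-2 replicate 1 (adjusted p = 0.117 and 0.102). Translation factors were higher in 25 of 47 and lower in 1 (median 0.18), with EEF1B2 at 0.46 (SE 0.05), and tRNA synthetases in 14 of 22 (median 0.20). In the direct test against ANKRD10-1 the ribosomal proteins had 5 higher and 0 lower, nucleolar assembly 0 and 3, translation factors 6 and 1, and tRNA synthetases 1 and 0. The 13 genes of mitochondrial DNA went the other way, with 7 lower and 0 higher (median −0.16), among them MT-CO3 (−0.26, SE 0.04) of cytochrome oxidase, and 4 were lower without Vector replicate 1. After siANKRD10-2, 61 of the 79 ribosomal protein genes were lower and 0 higher (median −0.38), and 11 of the 13 mitochondrial DNA genes were lower and 1 higher. Of all genes 18.7% were lower and 17.6% higher there, and the other lists were mixed. Nucleolar assembly had 21 of 60 genes lower and 12 higher (median −0.05). Translation factors had 17 of 47 lower and 6 higher, and tRNA synthetases 7 of 22 lower and 4 higher.

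**Figure D2:**
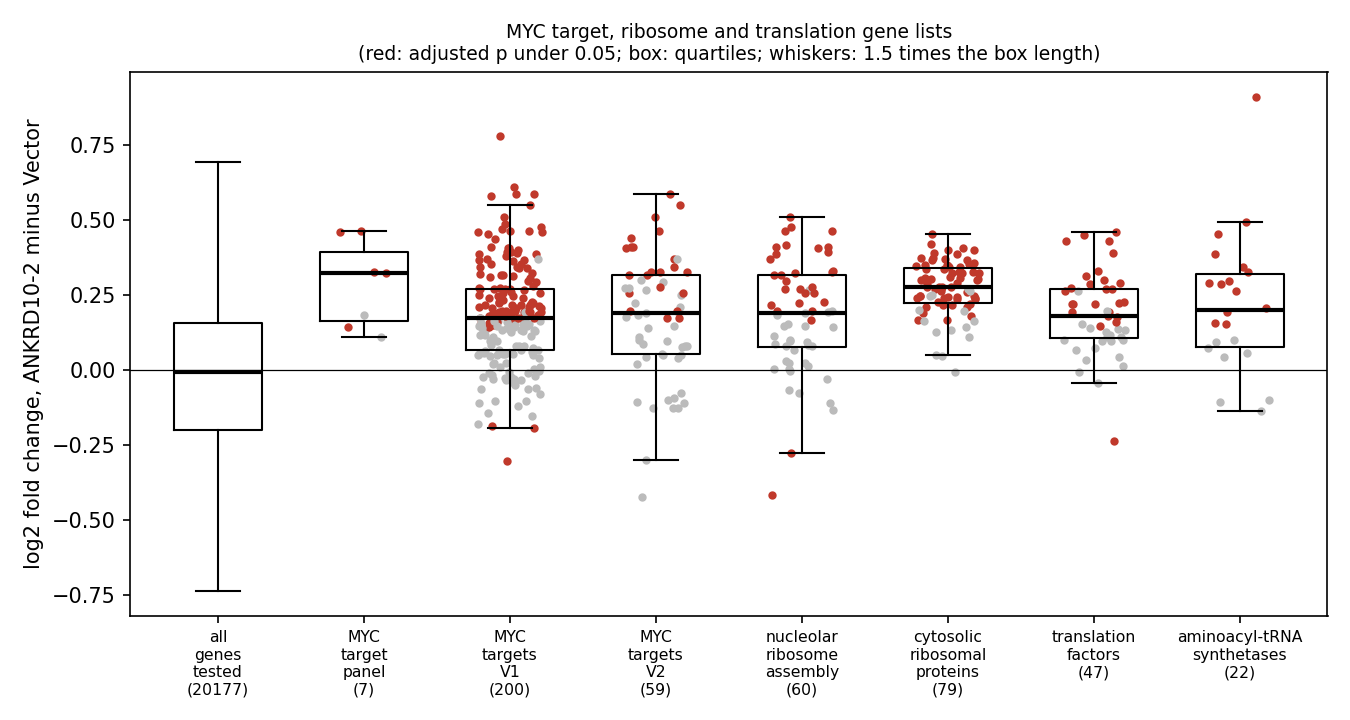
Log2 fold change of ANKRD10-2 minus Vector (vertical axis) for each gene of the MYC target, ribosome and translation lists, with red points past the threshold, grey points not past it, boxes for quartiles and whiskers to the last gene within 1.5 box lengths. The ribosomal protein box (median 0.28) lies wholly above 0, and the box of all genes is centred near 0.

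Glycolysis and hypoxia genes had larger medians against ANKRD10-1 than against Vector, and whether those medians differ was not tested. Against Vector, 11 of 23 glycolysis genes were higher and 0 lower (median 0.13), and 8 of 23 hypoxia genes were higher and 0 lower (median 0.06). Against ANKRD10-1 the counts were 9 of 23 (median 0.19) and 15 of 23 (median 0.26), with 0 lower in both. ENO1 (enolase) had 96300, 93510 and 98140 normalized counts against 78290, 70010 and 75010 (0.37, SE 0.05, adjusted p = 0.000154 from edgeR), and 0.28 (SE 0.05) against ANKRD10-1. ANKRD37, a target of the hypoxia factor HIF, had 1236, 1426 and 1292 against 863, 920 and 881 (0.57, SE 0.07), and 0.42 (SE 0.07) against ANKRD10-1. It shares 35.2% of its exon bases with UFSP2, which had 0.29. Carbonic anhydrase CA9 had 0.31 (SE 0.09, adjusted p = 0.0242 from edgeR) against Vector, and 38.5% of its exon bases are shared with ARHGEF39, which had 0.14. The CA9 call was lost without any single library other than ANKRD10-2 replicate 3 (adjusted p from 0.0504 to 0.0793). The hypoxia count was 3 without Vector replicate 2, and 5 without Vector replicate 1 or 3 or ANKRD10-2 replicate 2, and that of glycolysis was 7 without Vector replicate 2. ANKRD10-1 against the shared Vector had 0 hypoxia genes higher and 10 lower, beside 3.5% and 2.81% of all genes. After siANKRD10-2, 15 of 22 hypoxia genes were lower and 0 higher, beside 18.7% and 17.6% of all genes.

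The remaining lists are given beside the 10.7% higher and 9.25% lower of all genes tested. DNA replication had 7 of 48 genes higher and 6 lower (median 0.03) and mitosis 9 of 40 and 3 (median 0.05). For p53 targets the counts were 5 of 23 and 3 (median 0.02), and for splicing factors 9 of 47 and 3 (median 0.07). Transcription coactivators had 7 of 61 and 8 (median −0.04). Coactivators (11.5% and 13.1%) and DNA replication (14.6% and 12.5%) were thus near the shares of all genes. TGF-beta and BMP genes had 6 of 26 higher and 3 lower (median 0.03), with the ligand TGFB2 at 0.62 (SE 0.06), the inhibitor SMAD7 at 0.62 (SE 0.13), and SMAD6 at −0.70 (SE 0.11). Integrins and laminins had 5 of 21 higher and 6 lower (median 0.01), with ITGB8 at −0.73 (SE 0.08). Nucleotide synthesis had 11 of 30 higher and 2 lower (median 0.12), cholesterol synthesis 4 of 26 and 1 (median 0.11) and the respiratory chain 13 of 72 and 1 (median 0.09). Histone genes had 3 of 14 higher and 0 lower (median 0.19), nonsense-mediated decay and stress granule genes 3 of 18 and 1 (median 0.07), and urothelial differentiation genes 3 of 12 and 2 (median 0.03). Several of these counts were smaller with 1 library left out, as were the counts over all genes. Over all genes 2151 were higher and 1866 lower in the main fit. These became 1401 and 1216 without Vector replicate 2, and 1462 and 1155 without Vector replicate 1. Without ANKRD10-2 replicate 1 they were 1820 and 1420. Whether a list lost more than all genes did was not tested. Without Vector replicate 2, DNA replication had 4 higher and 3 lower, p53 targets 3 higher, coactivators 4 lower, integrins and laminins 3 lower, the respiratory chain 4 higher and cholesterol synthesis 2 higher. Without Vector replicate 1, mitosis and splicing factors had 5 higher and 1 lower each, integrins and laminins 3 lower, the respiratory chain 7 higher and cholesterol synthesis 2 higher. Without ANKRD10-2 replicate 1, the respiratory chain had 8 higher, coactivators 5 lower and cholesterol synthesis 2 higher. Cholesterol synthesis also had 2 higher without ANKRD10-2 replicate 3, and DNA replication 3 lower without ANKRD10-2 replicate 2. The lower counts of mitosis and splicing, and the higher counts of histone, decay and urothelial differentiation genes, were 1 in at least 1 fit of this kind.

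Of the 12 largest rises, 2 rested on 2 Vector libraries. UTS2B, a urotensin-related peptide, had 223, 198 and 209 normalized counts with ANKRD10-2 and 16.4, 16.6 and 163 in Vector (log2 fold change 1.61, SE 0.53, adjusted p = 0.0449 from edgeR). C17orf89, an assembly factor of respiratory complex I, had 2057, 1834 and 1803 against 168, 222 and 1509 (1.55, SE 0.52, adjusted p = 0.0497 from edgeR). Vector replicate 3 was close to the ANKRD10-2 libraries for both genes, and DESeq2 did not call either (adjusted p = 0.255 and 0.24). Both calls were also lost without any single library other than Vector replicate 3. The linker histone H1FX behaved alike, with 2244, 2002 and 2610 against 943, 954 and 2182 and overlapping groups. The other rises of this group were SFTA1P, a pseudogene, with 82.1, 74.4 and 98.7 against 30.0, 26.5 and 34.4 (1.48, SE 0.22), and MIR6819, a microRNA precursor, with 283, 186 and 211 against 98.3, 102 and 85.2 (1.26, SE 0.17). A poly(A) library does not measure the mature microRNA.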

How the data were processed

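The authors deposited raw counts of reads per gene, without normalization, for poly(A) RNA libraries of 5637 cells. Per the labels, GRCh38, Trimmomatic 0.36, featureCounts and Subread 1.5.1 were used and the library kit was stranded, while the methods also name HISAT2 and StringTie. The strand setting of the count is not given in the sources used here. Genes are listed by symbol with coordinates, and 28 symbols had been turned into dates.

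From these counts, only the libraries of the 2 groups compared entered each fit. edgeR 4.0.16 in R 4.3.3 was used with filterByExpr (minimum count 10, minimum total 15), TMM factors, the quasi-likelihood test and Benjamini-Hochberg adjustment over all genes tested (threshold 0.05). The prior count of the fold changes was 0.125. Total counts of the ANKRD10-2 and Vector libraries ran from 31736779 to 47116480. The test was tried on simulated counts first. Alternatives were median-of-ratios factors, DESeq2 1.42.0, other filters, all 9 libraries, a replicate block and each library left out.

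The comparison, gene lists and tests were chosen with earlier results of these data known. Lists are described by counts and medians beside those of all genes, with no set test. Named genes are ANKRD10, RBPMS, MYC, MAX, the 7-gene panel, the 12 largest rises and 12 largest falls (adjusted p under 0.05, known symbol, mean of at least 50 normalized counts, no overlap), the 8 smallest p, and up to 3 rises and 3 falls of each list. Promoter windows matched 146 of 199 named genes. Columns of the RBPMS knockout table were not used here.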

Additional observations from a re-analysis of the deposited data

How the results depend on the processing

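ANKRD10-2 overexpression against Vector gave 4017 DEGs, 2151 higher and 1866 lower. Requiring a change of at least 1 on the log2 scale left 241, with 61 higher and 180 lower. With 1 library left out in turn the total ran from 2617 to 3533, the higher count from 1401 to 1973 and the lower count from 1155 to 1560, with the lowest totals without Vector replicate 1 or 2. ANKRD10-2 against ANKRD10-1 overexpression gave 1455 DEGs, and 694 to 1396 with 1 library left out. ANKRD10-2 against ANKRD10-1 overexpression, higher, gave 423 to 814 genes in these fits, and ANKRD10-2 against ANKRD10-1 overexpression, lower, gave 271 to 582. The total was 694 without ANKRD10-1 replicate 1, 759 without replicate 2, 854 without replicate 3 and 953 without ANKRD10-2 replicate 3. The siANKRD10-2 comparison stayed within 1.5 times its count under all alternatives. The cause of these shifts was not tested, beyond the smaller number of libraries. ANKRD10 stayed higher and past the threshold under every alternative, from 0.38 to 0.46 with 1 library left out. Of the alternatives for the other named genes 2222 kept direction and side of the threshold and 153 lost the call, and RBPMS changed sign without ANKRD10-2 replicate 3 (−0.044) and ran from −0.044 to 0.17 with 1 library left out.

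Replicate numbers were not used as pairs in the main fit, because the labels do not say that they mark a shared day. Libraries of the same number had correlations of deviations of 0.076, 0.15 and 0.19. Each ANKRD10-2 library correlated best with the Vector library of its own number, so a shared replicate effect remains possible and was not tested. The replicate block for ANKRD10-2 overexpression against Vector gave 4766 DEGs, 2534 higher and 2232 lower. Depth limits low genes such as OASL.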
